A study of Mus musculus with 2 samples.

Results

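The account follows 10 genes of the TGF-beta and YAP pathways through the cell states of the mouse hair follicle: the ligand genes Tgfb1 and Tgfb2, the receptor genes Tgfbr1 and Tgfbr2, the feedback inhibitor gene Smad7, the TGF-beta-induced matrix gene Tgfbi, and Crim1, Ctgf, Cyr61 and Ankrd1, which are widely used as readouts of YAP. The genes were chosen by name, with earlier results of these data known. All 10 were found among the 31053 genes of the deposited matrices. They were read in 3918 of 6592 cell barcodes of replicate 1 and 3041 of 5080 of replicate 2, the barcodes with 1000 or more genes and at most 10% mitochondrial UMIs.

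Single cells were profiled with 10x Genomics 3′ chemistry in which unique molecular identifiers (UMIs) are counted. Both libraries come from 1 group: wild-type mice on a C57BL/6;CD1 background, taken at postnatal day 32 with follicles in anagen, the growth phase. Cells of the skin were sorted on CD34, a surface marker of bulge stem cells, together with a histone-GFP reporter driven by the keratin 14 promoter, so what the libraries hold depends on that gate. The design has no treatment, so the comparisons are between cell states and between cycling and non-cycling cells of the same libraries. Nothing in the labels says that the 2 libraries are separate animals. The p-values measure how far differences between cell states or cycle classes vary between these libraries, which may be technical. For the cycle classes over several states, they also measure how far the difference varies between states.

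TGF-beta ligands bind a type II receptor, which recruits and activates the type I receptor, and the pair then phosphorylates SMAD proteins that enter the nucleus. SMAD7 is induced by the pathway and blocks the receptors. YAP and its relative TAZ are transcriptional co-activators that bind DNA through TEAD factors when the Hippo kinases are inactive, as in cells under tension. In the hair follicle, TGF-beta2 from the dermal papilla is known to act on stem cells at the start of the growth phase, and CTGF and CYR61, secreted matrix-associated proteins, are targets that TGF-beta and YAP share.

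The upstream sequence is shown for some of the members in which a short match to a binding motif of these pathways was found. These are Cyr61 and Crim1, as YAP targets that differed between states, and Tgfb2, as the ligand gene with a match. Tgfb1 also differed between states, and its window held no match. In the RefSeq windows of build GRCm38.p6, the 250 bases before the annotated start were searched on both strands for GGAATG, the core letters of the TEAD motif, and for CAGACA, letters of the element that SMADs bind. Of 32851 such windows, 12.6% held the TEAD letters and 17.1% the CAGA letters, so a match is common. The capitals mark the match, and each window is printed in the direction of its gene.
Cyr61 (chr3:145649986-145650235, minus strand, TEAD letters on the opposite strand): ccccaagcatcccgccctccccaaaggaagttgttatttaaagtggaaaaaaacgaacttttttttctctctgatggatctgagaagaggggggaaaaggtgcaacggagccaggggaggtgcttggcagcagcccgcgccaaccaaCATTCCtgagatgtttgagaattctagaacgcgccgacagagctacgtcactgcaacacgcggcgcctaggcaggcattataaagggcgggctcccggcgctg
Crim1 (chr17:78199998-78200247, plus strand, TEAD letters): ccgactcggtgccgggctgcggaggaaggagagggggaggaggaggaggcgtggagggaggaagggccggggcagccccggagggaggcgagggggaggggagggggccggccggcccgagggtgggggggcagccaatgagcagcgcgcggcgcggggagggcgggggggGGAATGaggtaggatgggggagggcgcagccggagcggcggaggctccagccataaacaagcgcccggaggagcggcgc
Tgfb2 (chr1:186705990-186706239, minus strand, CAGA letters): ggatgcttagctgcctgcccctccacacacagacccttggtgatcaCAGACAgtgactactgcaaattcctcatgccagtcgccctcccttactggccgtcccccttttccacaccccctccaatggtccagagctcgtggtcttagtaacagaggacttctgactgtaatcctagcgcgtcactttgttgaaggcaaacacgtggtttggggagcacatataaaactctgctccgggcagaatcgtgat
The match began 103 bases before the start in Cyr61, 79 in Crim1 and 204 in Tgfb2. Ankrd1 held the TEAD letters at 210 and 123 bases and the CAGA letters at 137 bases before its start, and a 2nd window of Tgfbr1 held the CAGA letters at 203 bases. Windows were matched for 8 of the 10 members, 9 windows in all, of which 3 held the TEAD letters. No window was found for Ctgf, and Smad7 was left out when the windows were selected, so neither of them was searched. A match of letters is a description and not a binding site.

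Keratinocytes made up 3807 and 2963 of the kept cells, with 55 and 37 fibroblasts, 9 and 13 immune cells and a few cells of other kinds. At least 1 UMI of Krt14, whose promoter drives the reporter, was found in 97.9% and 97.8% of them, and at least 1 UMI of Cd34 in 45.9% and 46.8%. Krt5, the partner keratin of Krt14, was found in 99.9% of them in each library. A minimum level of Krt5 and Krt14 together was part of the keratinocyte gate, except for cells gated as inner root sheath. The shares with Krt14 and Krt5 therefore follow largely from that gate and are no check of the sort. The keratinocytes were assigned to follicle states by panels of marker genes, and 41.3% and 38.6% matched no panel or more than 1. Each state is named by its panel: the outer bulge (Krt24, Grem1, Tgm5, Calml3), the Gdf10 state, the Wfdc18 state, the lower sheath (Fgf5, Fbln5, Acta2), the Edn2 state, the Krtdap state, the inner root sheath and the upper follicle. Of the 8 states, 7 had at least 20 non-cycling cells in both libraries, and their sizes were uneven. The outer bulge had 30 and 190 such cells, the Krtdap state 36 and 111 and the upper follicle 23 and 27, while the other tested states had 136 to 468. The Krtdap state is defined by its panel alone: its cells had a Krt15 level of 8983 and 14590 UMIs per 1000000 (CPM), against 19816 and 26226 CPM in the outer bulge and 1174 to 6340 CPM in the other tested states, so it shares that bulge keratin. The libraries shared 11 barcodes, 3 among kept cells.

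UMIs were summed per state and library over non-cycling cells, and the level of a gene is its CPM in that sum, with replicate 1 given first throughout. A sum holds the level per state and cannot separate fewer expressing cells from less RNA per cell, so the share of cells with a UMI is given where it bears on a result. The 14 sums were compared with edgeR's quasi-likelihood test with the library as a block, Benjamini-Hochberg adjusted over 9874 genes, and each state was set against the mean of the log levels of the other 6. In the joint test over states, 8 of the 9 tested members differed between states, against 43.2% of all genes tested. The exception was Tgfbr1, and Ankrd1 had too few UMIs to test. 

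**Figure D1:**
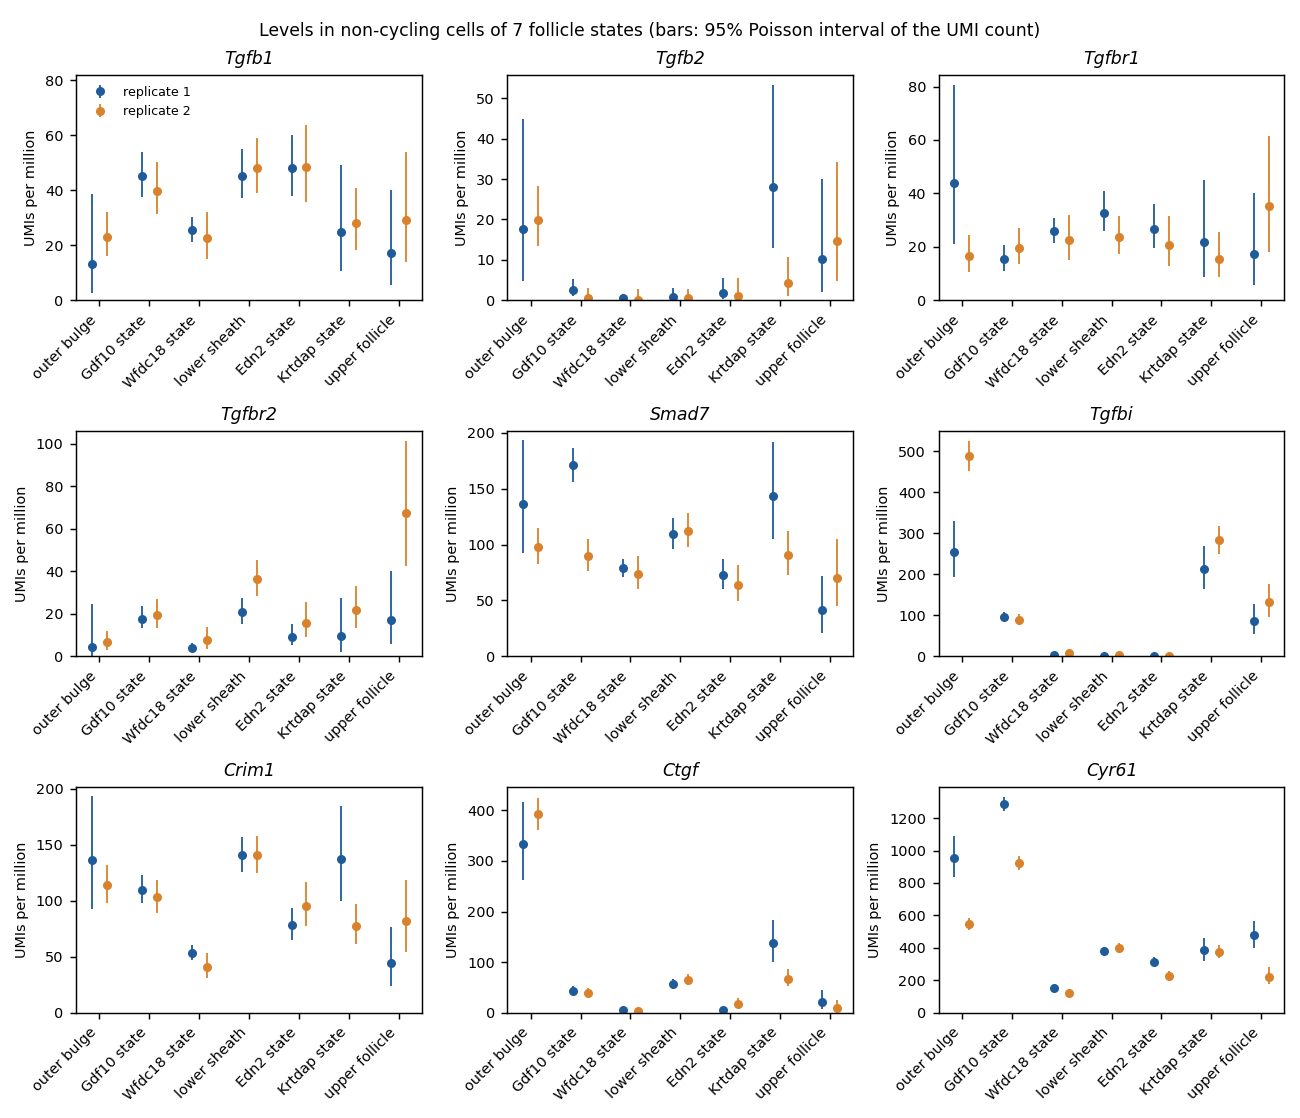
Level of 9 members in CPM (y axis, linear, from 0) in non-cycling cells of 7 follicle states (x axis), 1 point per library, with the 95% Poisson interval of the UMI count as bar, which covers counting error only. Ctgf stands at 334 and 393 CPM in the outer bulge, above all other states in both libraries, and Cyr61 is highest in the Gdf10 state.

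The 2 ligand genes were high in different states. Tgfb1 (chr7:25687002-25705077) was read at 47.9 and 48.3 CPM in the Edn2 state, 45.2 and 48.2 CPM in the lower sheath and 45.2 and 39.8 CPM in the Gdf10 state. In the remaining 4 states it lay between 13.2 and 29.3 CPM, below all 6 values of those 3 states. The outer bulge had the lowest mean level, at 13.2 and 23.1 CPM. Against the other states Tgfb1 was higher by a log2 fold change of 0.63 ± 0.18 (SE) in the Edn2 state, 0.59 ± 0.16 in the Gdf10 state and 0.53 ± 0.16 in the lower sheath (edgeR adjusted p = 0.0177, 0.0160 and 0.0186). The value for the outer bulge, -0.61 ± 0.26, did not pass (edgeR adjusted p = 0.108). Each of the 3 calls was lost under several other settings, DESeq2 among them for the Gdf10 state, with no change of sign.

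Tgfb2 (chr1:186622792-186705989) was a low gene, read mainly in 3 of the 4 states with less Tgfb1. It stood at 17.6 and 19.8 CPM in the outer bulge, 28.1 and 4.13 CPM in the Krtdap state and 10.3 and 14.6 CPM in the upper follicle, and at no more than 2.49 CPM in the other 4 states. The outer bulge was higher by 3.52 ± 0.54 and the Krtdap state by 2.32 ± 0.66, and the Wfdc18 state and the lower sheath were lower by log2 values of -3.65 ± 0.85 and -2.47 ± 0.83 (edgeR adjusted p = 3.53e-05, 0.0333, 0.00316 and 0.0315). The upper follicle had 2.50 ± 0.80, which did not pass (edgeR adjusted p = 0.0615). These rest on few molecules. The 4 UMIs of the outer bulge in replicate 1 were all in 1 cell, while the 30 UMIs of replicate 2 came from 18 of 190 cells. Over both libraries the outer bulge had 58.4 times the Tgfb2 of the Wfdc18 state, from 34 UMIs against 2, with a 95% counting interval of 15.0 to 502. This ratio pools libraries that these states fill unevenly: 227790 and 1518357 UMIs of all genes in the outer bulge, 4661249 and 1338714 in the Wfdc18 state. With the UMIs of the top cell of every sum left out, an alternative chosen after the levels were seen, the outer bulge kept its call at 3.96 (edgeR adjusted p = 0.000829). Its level was then 0 and 16.5 CPM, so that call rests on replicate 2. The calls for the Krtdap state, the Wfdc18 state and the lower sheath were lost (edgeR adjusted p = 0.341, 0.0945 and 0.152).

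Of the receptor genes, Tgfbr2 differed between states and no difference was called for Tgfbr1. Tgfbr1 (chr4:47353222-47414931), the type I receptor, lay between 15.3 and 43.9 CPM in all 14 sums, and neighbouring states in the order of its levels overlapped throughout. Its log2 values against the other states ran from -0.40 ± 0.36 in the Krtdap state to 0.38 ± 0.42 in the upper follicle, and its joint test gave an edgeR adjusted p of 0.557. The intervals of these values are wide, so equal levels are not shown.

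Tgfbr2 (chr9:116084293-116175360), the type II receptor that binds ligand, stood at 17.2 and 67.3 CPM in the upper follicle and 20.7 and 36.1 CPM in the lower sheath. It was lowest in the outer bulge, at 4.39 and 6.59 CPM, and in the Wfdc18 state, at 4.08 and 7.47 CPM, and these 4 values lie below all 10 of the other states. It was higher by 1.89 ± 0.37 in the upper follicle and 0.97 ± 0.22 in the lower sheath (edgeR adjusted p = 0.00156 and 0.00208). It was lower in the outer bulge and the Wfdc18 state, with log2 values of -1.65 ± 0.43 and -1.60 ± 0.31 (edgeR adjusted p = 0.00826 and 0.000538). The outer bulge value rests on 1 and 10 UMIs, and it did not pass in a fit on cells thinned to 5000 UMIs, where it was -0.92 (edgeR adjusted p = 0.204). That fit gated the thinned cells anew and lacked the upper follicle, and with the upper follicle alone left out the value was -1.32 (edgeR adjusted p = 0.0198). The upper follicle value differs between libraries, 0.82 and 2.07 on the log2(CPM + 1) scale.

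Smad7, the inhibitory SMAD, was present in all states at 41.2 to 171 CPM. Its Gdf10-state levels of 171 and 89.6 CPM were far apart, with a log2 value of 0.66 ± 0.17 (edgeR adjusted p = 0.00850). That difference was 0.93 in replicate 1 and 0.10 in replicate 2 on the log2(CPM + 1) scale, so replicate 1 carries it, and DESeq2 did not call it (adjusted p = 0.109). In the other states Smad7 was not called, with values from -0.71 ± 0.30 in the upper follicle to 0.42 ± 0.21 in the outer bulge.

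Tgfbi (chr13:56609523-56639562) encodes a secreted matrix protein named for its induction by TGF-beta, and it divided the states into a high and a low set. It was read at 255 and 488 CPM in the outer bulge, 212 and 283 CPM in the Krtdap state, 85.9 and 132 CPM in the upper follicle and 97.1 and 89.6 CPM in the Gdf10 state. In the Wfdc18 state it was 3.0 and 8.96 CPM, in the Edn2 state 1.87 and 1.97 CPM and in the lower sheath 0.862 and 2.51 CPM. No value of the first 4 states came near any of the last 3. All 7 comparisons passed edgeR's test: higher by 4.38 ± 0.19 in the outer bulge, 3.58 ± 0.20 in the Krtdap state, 2.31 ± 0.29 in the upper follicle and 2.11 ± 0.20 in the Gdf10 state (adjusted p of 7.97e-06 or less), and lower in the Wfdc18 state, the Edn2 state and the lower sheath with log2 values of -2.98 ± 0.38, -4.52 ± 0.48 and -4.88 ± 0.48 (adjusted p of 3.03e-06 or less). With 799 UMIs in the outer bulge and 7 in the lower sheath over both libraries, the ratio was 282, with a counting interval of 136 to 704.

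The share of cells with a transcript was likewise high in the first 4 states and low in the last 3. After each cell was thinned to 5000 UMIs, 78.6% of 28 and 86.3% of 175 outer bulge cells had a Tgfbi UMI, against 57.1% and 63.6% in the Krtdap state, 30.3% and 25.8% in the Gdf10 state and 0.930% and 1.06% in the lower sheath. Without thinning, 86.7% and 93.7% of outer bulge cells had one, and their median depth was 7369 and 7961 UMIs. Immune cells also carry this gene, at 426 and 506 CPM. Of the 6 immune markers, 0 and 5 had any UMI in the outer bulge, and Ptprc was at 0 in both libraries. They summed to 0 and 3.29 CPM there, against 56576 and 53626 CPM in the immune cells. Cells with 3 or more of these markers were not counted as keratinocytes, and the immune cells were defined by them. This contrast therefore follows largely from the gate, and the part of immune RNA in the Tgfbi level was not tested.

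Crim1 (chr17:78200248-78376592), a membrane protein that binds growth factors of the TGF-beta superfamily, was highest in the lower sheath at 141 CPM in both libraries. The outer bulge followed at 136 and 114 CPM, and the Wfdc18 state was lowest at 53.6 and 41.1 CPM. The lower sheath was higher by 0.62 ± 0.16 and the Wfdc18 state lower with a log2 value of -1.05 ± 0.18 (edgeR adjusted p = 0.00416 and 0.000170). The outer bulge was called at 0.56 ± 0.20 with an edgeR adjusted p of 0.0495, and 8 other settings did not call it, with values from 0.46 to 0.59.

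Ctgf (chr10:24595442-24598683) had its highest level in the outer bulge, at 334 and 393 CPM, and every other value lay at 137 CPM or below. The Krtdap state followed at 137 and 67.2 CPM, then the lower sheath at 56.4 and 64.2 CPM and the Gdf10 state at 43.4 and 38.7 CPM. The upper follicle had 20.6 and 8.78 CPM, the Edn2 state 5.60 and 17.7 CPM and the Wfdc18 state 4.72 and 2.24 CPM. Only the upper follicle and the Edn2 state overlapped among neighbours in this order. The log2 values were 4.10 ± 0.20 in the outer bulge, 1.64 ± 0.27 in the Krtdap state, 0.84 ± 0.22 in the lower sheath, -2.05 ± 0.36 in the Edn2 state and -3.55 ± 0.37 in the Wfdc18 state (edgeR adjusted p = 6.57e-13, 0.000380, 0.00653, 0.000263 and 1.87e-07). The lower sheath call was lost with DESeq2 (adjusted p = 0.0583) and in the fit on thinned, newly gated cells without the upper follicle, where the value was 0.10. With the upper follicle alone left out it was 0.64 (edgeR adjusted p = 0.0248).

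Ctgf was also uneven within the outer bulge. Of the thinned outer bulge cells, 32.1% and 54.9% had a Ctgf UMI, against 20% and 21.2% in the Krtdap state, 9.30% and 14.3% in the lower sheath and 1.83% and 0.741% in the Wfdc18 state. A single cell held 25 of the 76 UMIs in replicate 1 and another 58 of the 596 in replicate 2. Without them the level was 224 and 354 CPM, still above every other sum. Of the 9 and 13 immune cells, which should lack the gene, none had a Ctgf UMI at median depths of 10332 and 12469 UMIs. Fibroblasts, a known source of CTGF, had 30.5 and 19.7 CPM, less than in the outer bulge, where 1 and 3 of the 5 fibroblast markers had any UMI and Lum and Pdgfra were at 0. The fibroblast markers summed to 8.78 and 8.56 CPM in the outer bulge, against 45581 and 34487 CPM in the fibroblasts. Fibroblasts were defined by 3 or more of these markers, and such cells were not counted as keratinocytes. That contrast thus follows largely from the gate, and the part of fibroblast RNA in the Ctgf level was not tested.

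**Figure D2:**
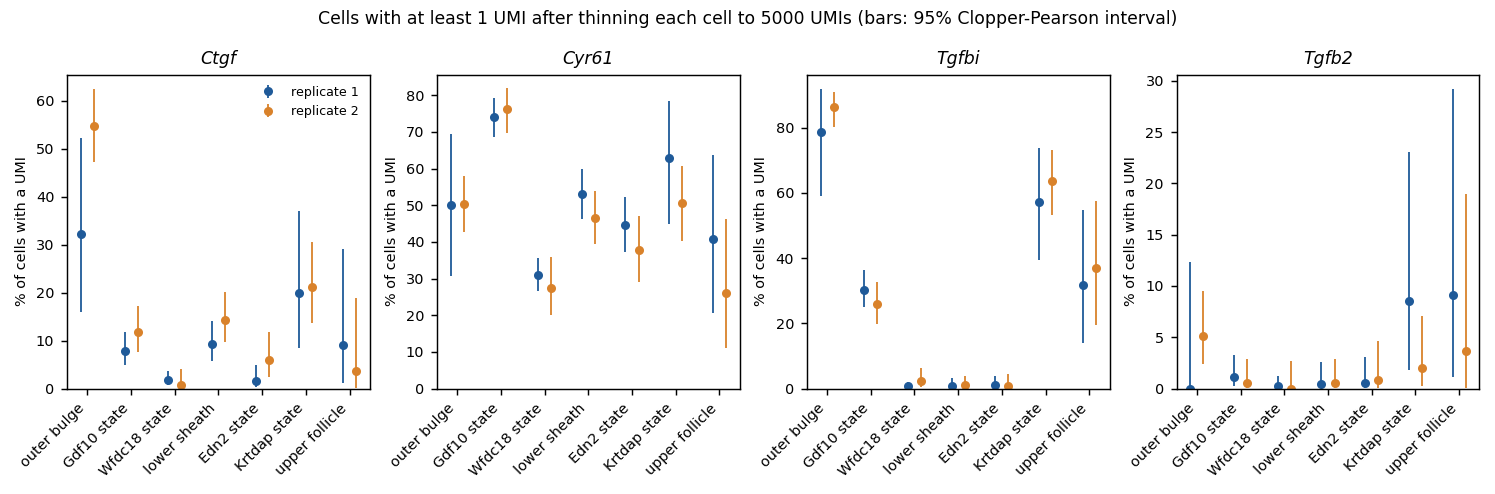
Share of non-cycling cells with at least 1 UMI of Ctgf, Cyr61, Tgfbi and Tgfb2 (y axis, percent) in 7 states (x axis) after each cell was thinned to 5000 UMIs, 1 point per library, with 95% Clopper-Pearson intervals. Tgfbi reaches 78.6% and 86.3% of outer bulge cells, and Cyr61 is most widespread in the Gdf10 state at 74.2% and 76.3%.

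Cyr61 (chr3:145646976-145649981), which encodes a relative of CTGF, had another order. It was highest in the Gdf10 state, at 1289 and 923 CPM, followed by the outer bulge at 957 and 548 CPM, and these 2 states overlapped. The lower sheath (381 and 398 CPM) and the Krtdap state (383 and 376 CPM) were alike within the spread of the libraries, and the Wfdc18 state was lowest at 153 and 120 CPM. The Gdf10 state was higher by 1.80 ± 0.13 and the outer bulge by 1.09 ± 0.15, and the Edn2 and Wfdc18 states were lower with log2 values of -0.73 ± 0.16 and -1.80 ± 0.18 (edgeR adjusted p = 2.15e-09, 9.26e-06, 0.00304 and 8.44e-08). Both genes had their lowest mean level in the Wfdc18 state, but Ctgf was 9.26 times lower in the Gdf10 state than in the outer bulge (counting interval 7.88 to 10.9), whereas Cyr61 stood at 1289 and 923 CPM there against 957 and 548 CPM.

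Cyr61 is also an immediate early gene. The summed level of 10 such genes (Fos, Jun, Egr1, Atf3 and others) was 22573 and 19799 CPM in the Gdf10 state, the highest of the 7 states in both libraries, and 18543 and 12066 CPM in the outer bulge. The Edn2 state had 20369 and 19478 CPM of them with 314 and 226 CPM of Cyr61, and the Wfdc18 state 13250 and 14257 CPM. Their part in the Cyr61 result was not tested.

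Co-detection of Ctgf and Cyr61 within a state is a description, since deeper reading of a cell raises both. Among thinned outer bulge cells with a Ctgf UMI, 7 of 9 and 55 of 96 also had a Cyr61 UMI, which is 77.8% and 57.3%, against 36.8% and 41.8% of cells without Ctgf. In the Gdf10 state the shares were 95.2% and 91.3%, against 72.4% and 74.3%, and in the lower sheath 60% and 66.7%, against 52.3% and 43.2%. The order was not the same everywhere: it was 57.1% against 64.3% in replicate 1 of the Krtdap state, 28.6% against 38.4% in replicate 2 of the Edn2 state, 25% against 31.1% in replicate 1 of the Wfdc18 state and 0% against 26.9% in replicate 2 of the upper follicle. Those 4 shares rest on 7, 7, 8 and 1 cells with a Ctgf UMI.

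Ankrd1 (chr19:36111961-36120099), an ankyrin-repeat protein gene often used as a YAP readout, had no UMI in any of the 3807 and 2963 keratinocytes. A count of 0 allows a level of up to 0.0707 and 0.0897 CPM. With cells thinned to 5000 UMIs, 0 of 3628 and 0 of 2781 keratinocytes had a UMI, which allows a share of cells with a UMI at that depth of up to 0.0827% and 0.108% and sets no limit on the share that express the gene. The gene was read in 1 fibroblast of replicate 2, with 3 UMIs. Not detected at this depth is the most that can be said.

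By state, the outer bulge had 5 members higher and 1 lower of the 9 tested, against 19.4% of all genes called in either direction (10.3% higher, 9.17% lower). Its higher members were Tgfbi, Ctgf, Tgfb2, Cyr61 and Crim1, and its lower member was Tgfbr2. The Wfdc18 state had 0 higher and 6 lower against a background of 19.1% called, 11.2% higher and 7.91% lower. The lower sheath had 4 higher (Tgfbr2, Ctgf, Crim1, Tgfb1) and 2 lower (Tgfbi, Tgfb2), against 25.8% of genes called, 13.8% higher and 12.0% lower. In the Gdf10 state 4 were higher (Tgfbi, Cyr61, Smad7, Tgfb1) and 0 lower, against 13.8% of genes called, 11.4% higher and 2.42% lower. The Edn2 state had Tgfb1 higher and Tgfbi, Ctgf and Cyr61 lower, against 16.7% of genes called, 10.1% higher and 6.60% lower. The Krtdap state had 3 higher (Tgfbi, Tgfb2, Ctgf), against 6.88% of genes called, 4.56% higher and 2.32% lower. The upper follicle had 2 higher (Tgfbi, Tgfbr2), against 7.58% called, 5.47% higher and 2.11% lower. The median log2 value over the 9 tested members was 0.56 in the outer bulge and -1.60 in the Wfdc18 state, beside 0.01 and 0.02 over all genes.

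**Figure D3:**
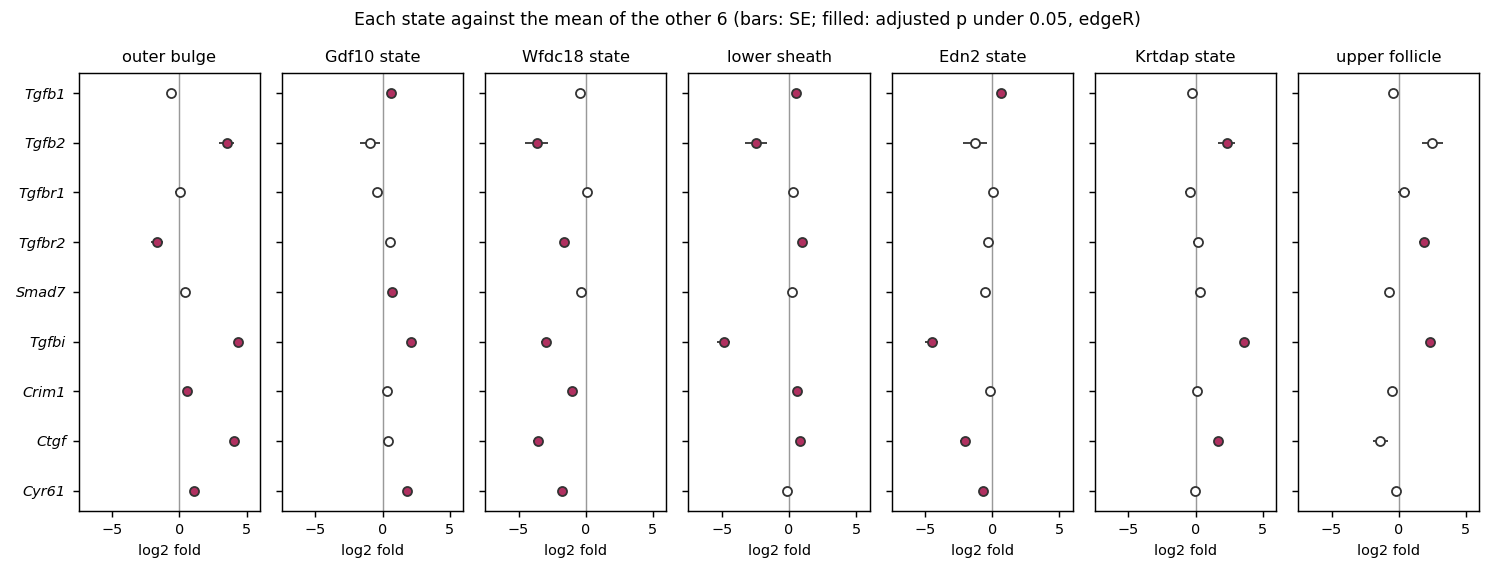
Log2 fold change of each state against the mean of the other 6 (x axis) for the 9 tested members (y axis), with SE bars, filled where edgeR's adjusted p is under 0.05. Tgfbi is filled in all 7 states and Tgfbr1 in none.

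The genes whose log2 levels over the 14 sums, centred within each library, were most like those of a member were listed as a description, out of 5301 genes with a mean of at least 20 CPM; the points share libraries and depth. For Tgfbi they were Nfatc1 (Pearson r = 0.97), a transcription factor of quiescent bulge stem cells, Aqp3 (0.97) and Col7a1 (0.97). Ctgf was most like Cadm1 (0.95), Ecm1 (0.93) and Sgk3 (0.92), and Crim1 most like Spon2 (0.94). For Tgfb1 they were Slc50a1 (0.97) and Cdh3 (0.95), the gene of P-cadherin. Cyr61 was most like Trpv4 (0.86), the gene of a calcium channel.

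The rest of both pathways was read from 5 lists with 76 other genes, of which 67 were tested and 54 differed between states in the joint edgeR test, beside the 43.2% of all genes. In the list of ligands, receptors and latency proteins, the outer bulge had 5 higher and 2 lower of 12 tested. Of all genes, 10.3% were called higher and 9.17% lower there, which is the background for each list in the outer bulge. The largest of all lists there were Ltbp2 (4.54 ± 0.52) and Ltbp1 (3.0 ± 0.38), which encode proteins of the matrix that hold latent TGF-beta, although Ltbp2 was at 22.0 and 28.3 CPM only. Of the TGF-beta response genes 0 were higher and 6 lower of 13, led by Tagln (-4.40 ± 0.56), the gene of a smooth muscle protein, and Fn1 (-2.74 ± 0.39), that of fibronectin. Of the other YAP targets 3 were higher and 6 lower of 14, with Igfbp3 higher (2.05 ± 0.38) and F3, tissue factor, lower (-2.67 ± 0.27). Tgfbi, Ctgf and Cyr61 were thus higher in the outer bulge, while all 6 called genes of the response list were lower. The Hippo core genes had 0 higher and 6 lower of 18, and Yap1 itself was at 35.1 and 42.8 CPM there, within the 30.1 to 61.8 CPM of the other states.

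In the lower sheath, 6 response genes were higher and 1 lower of 13, and 8 other YAP targets were higher and 1 lower of 14, beside 13.8% of all genes called higher and 12.0% lower. Tagln (5.16 ± 0.24), Tgm2 (3.39 ± 0.40) and Fn1 (3.04 ± 0.15) were the highest and Myof, Cdkn1a and Itgb8 the lowest (-2.72 ± 0.36, -2.21 ± 0.24 and -1.58 ± 0.24). Tagln is a contractile gene as is Acta2, which helped define this state. In the Wfdc18 state 7 of 14 other YAP targets were lower and 1, Myof (2.70 ± 0.20), was higher, beside 7.91% of all genes lower and 11.2% higher. Of 13 response genes there, 2 were higher and 4 lower, and of 12 ligand and latency genes 0 were higher and 6 lower. The 2 higher response genes were Cdkn2b (2.30 ± 0.36) and Cdkn1a (1.36 ± 0.18), cell cycle inhibitors that TGF-beta induces. Over all lists Igfbp3, Ltbp2 and Asap1 were the lowest (-4.38 ± 0.62, -3.70 ± 1.09 and -2.66 ± 0.39).

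Of the same 14 YAP targets the Gdf10 state had 9 higher and 0 lower, beside 11.4% of all genes higher and 2.42% lower, with a list median of 0.90 beside 0.04 over all genes. Its highest genes over all lists were Tgm2 (3.68 ± 0.39), Col4a1 (1.88 ± 0.12) and Ltbp4 (1.66 ± 0.16), and Cdkn2b (-2.87 ± 0.71) and Itgb5 (-0.68 ± 0.17) were lower. In the Edn2 state Tagln (3.49 ± 0.25), Fn1 (2.63 ± 0.16) and Col4a1 (1.94 ± 0.13) were higher, and Myof, Asap1 and Igfbp3 lower (-2.68 ± 0.41, -2.23 ± 0.45 and -1.55 ± 0.53). The Krtdap state had Ltbp1 (1.95 ± 0.48), Myof (1.81 ± 0.29) and the ligand gene Tgfb3 (1.69 ± 0.34) higher, with F3, Tagln and Arhgap29 lower (-1.85 ± 0.24, -1.76 ± 0.40 and -1.10 ± 0.30). In the upper follicle Thbs1, whose product activates latent TGF-beta, was higher by 1.99 ± 0.19, with Cdkn1a (1.84 ± 0.21) and Wwc1 (1.70 ± 0.40), and Itgb6, Ltbp3 and Col4a1 were lower (-1.79 ± 0.47, -1.61 ± 0.29 and -1.36 ± 0.24).

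Cycling cells were compared with non-cycling cells of the same state and library, in the 3 states with at least 20 cells of each class in both libraries, the Wfdc18 state, the lower sheath and the Edn2 state. Cells were called S phase or mitotic from 4 or more of 10 marker genes, and 18 sums entered the edgeR fit of 8050 genes, in which 7 of the 10 members could be tested. Tgfb2, Tgfbi and Ankrd1 were too low in these states. For S phase 0 of the 7 members were called by edgeR and 0 by DESeq2, with 1 at an unadjusted p under 0.05, against 8.67% of all genes. Mitotic cells had deeper libraries than non-cycling cells (medians of 13109 and 11534 against 8704 and 8142 UMIs in the Wfdc18 state), which CPM scales for.

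Against non-cycling cells, mitotic cells differed for 4 of 7 members, beside 31.3% of all genes called, 14.8% higher and 16.6% lower. Tgfb1 was higher by 0.35 ± 0.13, with mean levels over the 3 states of 49.5 and 55.4 CPM against 39.5 and 39.6 CPM. Smad7, Crim1 and Cyr61 were lower, with log2 values of -0.36 ± 0.12, -0.31 ± 0.10 and -0.29 ± 0.11 (edgeR adjusted p = 0.0216, 0.0121 and 0.0387, and 0.0362 for Tgfb1). With both cycling classes as 1, the log2 value of Cyr61 was -0.51 ± 0.12 in the Edn2 state, -0.07 ± 0.10 in the lower sheath and 0.0042 ± 0.11 in the Wfdc18 state (edgeR adjusted p = 0.00128, 0.721 and 0.988), and the difference between states was not called (edgeR adjusted p = 0.138). In the Edn2 state the summed level of the 10 immediate early genes was 20369 and 19478 CPM in non-cycling cells and 15322 and 11580 CPM in mitotic cells, and its part in the Cyr61 value was not tested. Smad7 fell from 83.5 to 55.6 CPM in replicate 2 and from 87.0 to 80.5 CPM in replicate 1, so the difference was uneven. These are small changes: DESeq2 called 2 of the 7, and a fit on cells thinned to equal depth, which left the Edn2 state alone, called none. Of the other YAP targets 0 were higher and 7 lower of 13 tested in mitotic cells, with Igfbp3 lowest (-1.68 ± 0.26), and among the ligand and latency genes 4 were lower of 8, with Thbs1 at -0.89 ± 0.12.

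**Figure D4:**
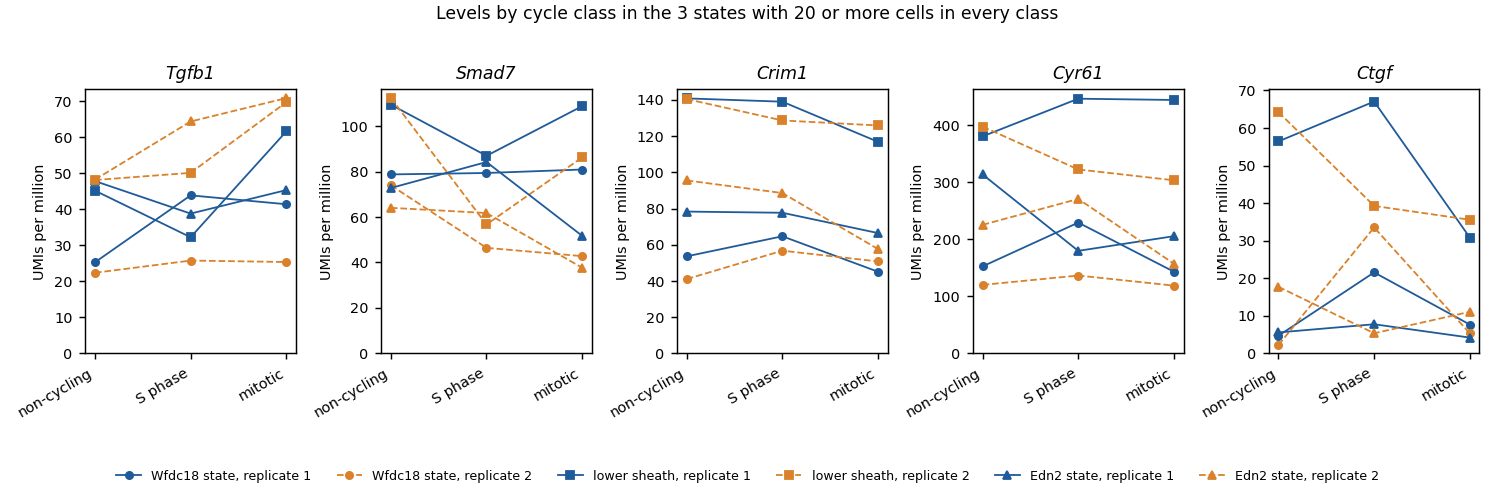
Level in CPM (y axis, linear, from 0) of 5 members in non-cycling, S-phase and mitotic cells (x axis) of 3 states, with lines joining the classes of 1 state and library. Ctgf in the Wfdc18 state peaks in S phase at 21.6 and 33.5 CPM. In the lower sheath its mitotic values of 30.8 and 35.6 CPM lie below the non-cycling 56.4 and 64.2 CPM. The S-phase value of the lower sheath lies above the non-cycling one in replicate 1 only.

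Ctgf did not change in 1 direction over the states. In the Wfdc18 state it was 4.72 and 2.24 CPM in non-cycling cells and 21.6 and 33.5 CPM in S phase, and in mitotic cells it was 7.69 and 5.35 CPM. In the lower sheath non-cycling cells had 56.4 and 64.2 CPM and mitotic cells 30.8 and 35.6 CPM. S-phase cells of the lower sheath lay above the non-cycling level in replicate 1 and below it in replicate 2. With both cycling classes as 1, the change differed between the 3 states (edgeR adjusted p of the interaction = 0.000792, 12 sums, 3 residual degrees of freedom), against 2.05% of all genes. It was 1.48 ± 0.34 in the Wfdc18 state, -0.67 ± 0.19 in the lower sheath and -0.58 ± 0.45 in the Edn2 state (edgeR adjusted p = 0.000600, 0.00907 and 0.488), beside 21.9%, 13.3% and 12.3% of genes called there.

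Single cells weigh heavily in this result. In S-phase cells of the Wfdc18 state, 1 of 98 cells held 17 of the 28 Ctgf UMIs in replicate 1 and 1 of 36 cells held 7 of the 13 in replicate 2. With the top cell of every sum left out, the interaction was no longer called (edgeR adjusted p = 0.153) and the change in the Wfdc18 state was 0.85 ± 0.43 (edgeR adjusted p = 0.157), while that in the lower sheath remained at -0.75 ± 0.22 (edgeR adjusted p = 0.0119). Over 5 states with S-phase and mitotic cells pooled, the interaction had an edgeR adjusted p of 0.0516, beside 3.38% of genes called. Both were chosen after the data were seen. Between the classes, mitotic cells had less Ctgf than S-phase cells by a log2 value of -1.06 ± 0.34 (edgeR adjusted p = 0.0431, against 10.9% of genes). That call was lost without the top cells (edgeR adjusted p = 0.197).

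Fibroblasts in the same libraries give the levels of a cell type other than keratinocytes. Whether they lay inside or outside the follicle was not tested. Of the 9 members tested, 7 were higher than in the follicle states and Crim1 was lower, against 41.5% of genes called, 24.3% higher and 17.3% lower. Tgfb2 stood at 136 and 122 CPM and Tgfbr2 at 283 and 219 CPM, higher by 5.46 ± 0.28 and 4.20 ± 0.21 (edgeR adjusted p = 3.01e-14 and 1.73e-14). Cyr61 was read at 1133 and 653 CPM, within the range of the Gdf10 state and the outer bulge. Crim1 was at 13.7 and 7.17 CPM with a log2 value of -3.01 ± 0.36 (edgeR adjusted p = 1.60e-07). Ctgf did not pass, at -0.36 ± 0.37. Tgfb1 was at 53.3 and 53.8 CPM in fibroblasts and at 213 and 238 CPM in the few immune cells.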

How the data were processed

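The deposited files are gene-by-cell matrices of raw UMI counts, whole numbers with no normalization, 1 per library, made with Cell Ranger 3.1.0 on mm10, and Seurat 3.1 is also named, per the submitters' processing notes. The totals were 52344178 and 38678103 UMIs and the kept cells had medians of 9955 and 9797. Python 3.11.15, scanpy 1.11.5, R 4.3.3, edgeR 4.0.16 and DESeq2 1.42.0 were used.

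Keratinocytes were given a state where at least 2 markers of its panel were detected and its mean z-score was at least 0.5 and 0.5 above the next. Members, panels and lists were chosen with earlier results of these data known. All members are named, and of the other genes at most 3 called per direction and comparison, by the size of the change. Gate and cycle markers were left out of the tests. UMIs were summed per state, cycle class and library. edgeR used TMM, its expression filter and the library as a block, since the sums of different states come from the same library, which pairs them. The cycle fits had a term for each state in each library. The SE is the size of the log2 fold change divided by the square root of F. Scrublet's automatic threshold called 0 doublets in each library, which is not a working call, so doublets were kept, and the 255 and 139 top-scoring barcodes were left out as an alternative. On data simulated for the outer bulge comparison (9414 genes), 90.7% of 4-fold and 58.3% of 2-fold changes were called. Intervals cover counting error only, and ratios over both libraries pool UMIs that the states draw unevenly from each library. Genes are placed by GENCODE M21 on GRCm38; Ctgf and Cyr61 are named Ccn2 and Ccn1 there. For strand and annotation in counting, the status is: not given in the sources used here.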

Additional observations from a re-analysis of the deposited data

Results flagged for a closer look

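The change of Ctgf in cycling cells differed between follicle states, with an edgeR adjusted p of the interaction of 0.000792, higher in the Wfdc18 state and lower in the lower sheath in both libraries. The difference itself was tested, and it was not called once the top cell of each sum was left out (edgeR adjusted p = 0.153).

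Tgfb2 was read in mitotic cells gated as inner root sheath, which entered no comparison because only 9 and 3 non-cycling cells of that state were found. It stood at 37.9 CPM in replicate 1, from 37 UMIs in 19 of 40 cells, and at 22.5 CPM in replicate 2, from 17 UMIs in 11 of 36 cells. A count of 0 allows 3.07 and 3.97 CPM in these sums. In mitotic cells of the 3 states compared, Tgfb2 averaged 0.764 and 0 CPM. Mitotic cells gated as upper follicle also carried it, with 18 UMIs in 3 of 9 cells in replicate 1, 11 of them in 1 cell, and 2 UMIs in 2 of 7 cells in replicate 2. Of the cells gated as inner root sheath, 3 of 61 and 12 of 51 had a high doublet score, and the part of doublets in these values was not tested.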

How the results depend on the processing

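Of 44 called values of members, all had the same sign in both libraries, which is no separate check because these libraries gave the calls. Over the alternatives that could be tested, 503 of these values kept sign and call, 73 lost the call and 1 reversed: Ctgf in the Edn2 state was 0.13 with at most 5% mitochondrial UMIs, a limit that leaves 4 states in the comparison. Under that limit the calls over all states fell from 31 to 16, and those in mitotic cells from 4 to 1. Without the library term, that is with no replicate block, the calls were 1 in mitotic cells, 0 for mitotic against S phase and 0 for the interaction, and 14 of the 44 values lost their call, among them Tgfb2 in the lower sheath (-2.43) and the Krtdap state (2.24) and Tgfbr2 in the outer bulge (-1.40). The fit thinned to 5000 UMIs also gated the cells anew and left out the upper follicle. The calls in mitotic cells were 2 with DESeq2, 1 with a gate margin of 1 and 0 thinned to 5000 UMIs. For mitotic against S phase the 1 call became 2 with DESeq2-type size factors, without the expression filter or without high doublet scores, and 0 with DESeq2, with a margin of 0 or 1, thinned, or without the top cells. For the interaction the 1 call became 2 without the filter, with a margin of 0 or with 3 cycle markers, and 0 with DESeq2, with a margin of 1, over 5 states or without the top cells. The cause was not tested. Counts of all genes called moved by more than 1.5 times as follows. With no replicate block they went from 1363 to 755 in the Gdf10 state, 1648 to 1067 in the Edn2 state, 679 to 373 in the Krtdap state, 698 to 424 in S phase, 875 to 558 for mitotic against S phase and 178 to 0 for the interaction. With at most 5% mitochondrial UMIs they were 2774 of 4263 in the joint test, 608 in the Edn2 state, 247 in S phase, 1200 of 2522 in mitotic cells and 408 for mitotic against S phase. Thinned, they were 1098 in the Edn2 state, 178 in S phase, 446 in mitotic cells, 142 for mitotic against S phase and 2740 of 4259 in fibroblasts. DESeq2 called 836 in the Gdf10 state and 21 for the interaction. With all gated cells they were 2114 in the Gdf10 state, 1380 in the Krtdap state and 1290 against 748 in the upper follicle. A margin of 1 gave 328 in S phase, 1576 in mitotic cells, 520 for mitotic against S phase and 41 for the interaction, which had 359 with a margin of 0, 272 with 3 cycle markers and 287 over 5 states. With 1 library left out no test remains, and the interaction could not be fitted on thinned cells. The 2 libraries, 30 outer bulge cells in replicate 1 and low counts of Tgfb2 and Tgfbr2 limit the precision.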
